A study of Mus musculus with 2 samples.

Results

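The genes described here encode the nuclear-made parts of the 5 complexes of oxidative phosphorylation, measured in autoreactive and non-autoreactive immature B cells of the mouse. They were taken by name: a probe belonged when its gene name began with Nduf, Uqcr, Cox4, Cox5, Cox6, Cox7, Cox8 or Atp5, or was Sdha, Sdhb, Sdhc, Sdhd or Cyc1. This gave 114 probes of 83 gene names, out of 41174 gene probes on the array. Complex I had 51 of these probes, complex II 6, complex III 11, complex IV 20 and complex V 24. The other 2 are probes of Cox4nb, which matched by name alone: it is now called Emc8 and belongs to a membrane protein complex of the endoplasmic reticulum.

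The study set autoreactive immature B cells, labelled with Cy5, directly against non-autoreactive ones, labelled with Cy3, on 2 Agilent arrays. The autoreactive cells came from BALB.B mice with the 3-83Igi immunoglobulin knock-in, Rag1-/- and of the H-2b haplotype. The non-autoreactive cells came from BALB/c mice with the same 3-83Igi knock-in and of the H-2d haplotype. Mice were untreated, and bone marrow cells were pooled and sorted as B220+ CD23- CD43- IgD-. Both arrays had the same dye orientation, so strain, haplotype, Rag1 disruption and dye all follow the groups and cannot be told apart. The labels do not name the animals in each pool, and the ages of the mice are not given in the sources used here, so the p-values measure only the spread between the 2 arrays.

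Oxidative phosphorylation passes electrons from NADH through complex I, or from succinate through complex II, to complex III and on to complex IV, which reduces oxygen. Complexes I, III and IV pump protons across the inner mitochondrial membrane, and complex V, the ATP synthase, uses their return to make ATP. Most subunits are encoded in the nucleus, and several subunits of complex IV exist as a widely expressed form and a form found in particular tissues such as muscle.

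Between 53.9% and 57.0% of the gene probes were well above background in a channel of an array, and no member spot was saturated. H2-Ea, an MHC class II gene that the H-2b haplotype does not express, had ratios of -5.22 and -5.26 (log2, autoreactive over non-autoreactive), on arrays 1 and 2. A probe of Rag1, the gene disrupted in the autoreactive mice, was higher in the autoreactive channel, with ratios of 4.25 and 4.02 on arrays 1 and 2, which goes against the label Rag1-/- if taken as a loss of message. It was the brightest of 3 tested Rag1 probes, and the others are not given here. Which part of Rag1 was deleted is not given in the sources used here, nor whether the probe lies in it, so this probe does not check the genotype. Here and below, each gene of a marker or related list was read from its brightest tested probe, and its other probes were not counted. Of 12 listed B cell markers 11 were found, and all 11 were well above background in both channels on both arrays. They were not alike in the groups: 2 were called higher and 3 lower, against 3.15% and 2.17% of all tested probes. The largest ratios were those of Ms4a1, called lower, at -4.02 and -3.21 on arrays 1 and 2. Of the markers of other cell types, 9 erythroid markers had a median ratio of -0.52 on array 1 and -0.49 on array 2. For 14 T and NK cell markers the medians were -0.05 and -1.13, and for 14 myeloid markers 0.07 and -0.81, so these were low on array 2 alone. A level below is a normalized log2 intensity, which has no meaning between probes, and a ratio is autoreactive over non-autoreactive on the log2 scale. Where levels of the groups are said not to overlap, the share of all tested probes that also did not overlap was not counted. "Called" means an adjusted p under 0.05 in limma, with Benjamini-Hochberg adjustment over the 22623 probes tested.

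Of the 114 member probes, 107 were tested, those that stood well above background on each array in 1 or both channels, and these covered 80 of the 83 gene names. Of these 107, 6 were called higher in autoreactive cells, 1 was called lower and 100 were not called. Over the whole array 3.15% of tested probes were called higher and 2.17% lower, 5.31% in either direction. The genes called higher were Uqcrh of complex III, Cox6a1 of complex IV and Atp5b, Atp5a1, Atp5g3 and Atp5c1 of complex V, by 0.65 to 0.92. The gene called lower was Cox6a2 of complex IV, by a ratio of -1.22. The count of higher calls depended on the processing: it was 0 with the deposited ratios, 103 when each array was centred on the median of all gene probes, and 69 when it was centred on the median of the tested probes, while the lower calls were 1, 1 and 3. Over all 22623 tested probes, the higher calls in these settings were 427, 14319 and 3488, in that order. The lower calls were 402, 529 and 3945.

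After loess normalization, most of the genes differed little between the groups. The median ratio was 0.07 over the 107 member probes, against 0.01 over all tested probes. It was 0.05 on array 1 and 0.12 on array 2. With median centring in place of loess it was larger: 1.08 against 0.54 over all tested probes with centring on all gene probes, and 0.54 against 0.00059 with centring on the tested probes. After loess, 95 of the 107 lay within 0.5 of 0 and 71 lay above 0. Over all 22623 tested probes these counts were 20016 and 11514. The spread over members was narrower than over the array: the SD of the ratios was 0.261 on array 1 and 0.358 on array 2, against 0.337 and 0.482 over all tested probes. The ratio had the same sign on both arrays for 81 of the 107 probes, or 75.7%, against 70.8% of all tested probes. Across the 107 probes, the 2 arrays correlated with a Pearson r of 0.795 and a Spearman rho of 0.678, and probes on 1 array share its hybridization.

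**Figure D1:**
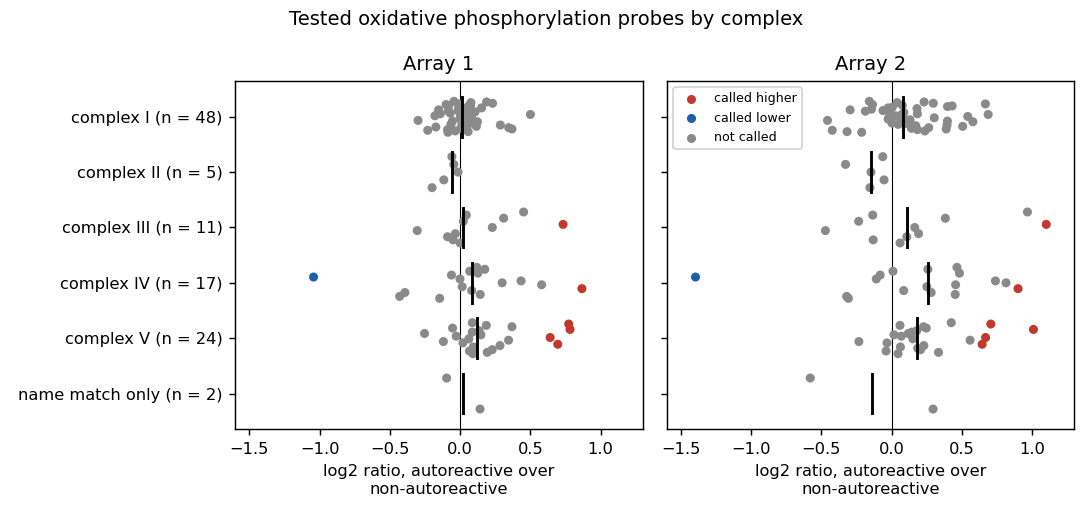
Log2 ratio of autoreactive over non-autoreactive cells for every tested member probe, by complex, on array 1 (left) and array 2 (right). Each point is a probe, red and blue points are probes called higher or lower, and the black bars are medians. The probe of Cox6a2 stands apart at -1.04 and -1.40, and 5 of the 6 higher calls lie in complexes IV and V.

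Promoters of the members were taken from RefSeq (GRCm38.p6), as windows from 250 bases before to 50 bases after the start. Of the 83 gene names, all 83 matched RefSeq and 67 had a promoter in the table, 72 promoters in all. Shown are Cox6a1 (chr5:115348909-115349208, minus strand) and Uqcrh (chr4:116075021-116075320, minus strand), genes with a call and a promoter in which a motif known from mitochondrial genes was found, and Cox7a1 (chr7:30183921-30184220, plus strand), a tissue isoform with none. The called gene Atp5b, not shown, had a promoter with none of the motifs searched. Capitals mark a motif match on either strand.
Cox6a1: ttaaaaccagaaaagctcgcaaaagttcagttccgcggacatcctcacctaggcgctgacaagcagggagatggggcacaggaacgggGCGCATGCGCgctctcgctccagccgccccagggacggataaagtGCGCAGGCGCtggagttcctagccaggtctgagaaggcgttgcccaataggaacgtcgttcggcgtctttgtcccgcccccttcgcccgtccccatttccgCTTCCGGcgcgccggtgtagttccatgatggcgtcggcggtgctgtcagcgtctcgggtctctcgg
Uqcrh: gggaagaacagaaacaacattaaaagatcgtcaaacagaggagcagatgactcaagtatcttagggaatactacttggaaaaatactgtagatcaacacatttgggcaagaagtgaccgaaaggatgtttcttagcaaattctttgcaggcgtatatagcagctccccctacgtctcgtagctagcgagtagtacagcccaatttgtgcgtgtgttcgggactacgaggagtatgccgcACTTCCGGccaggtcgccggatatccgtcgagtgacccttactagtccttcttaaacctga
Cox7a1: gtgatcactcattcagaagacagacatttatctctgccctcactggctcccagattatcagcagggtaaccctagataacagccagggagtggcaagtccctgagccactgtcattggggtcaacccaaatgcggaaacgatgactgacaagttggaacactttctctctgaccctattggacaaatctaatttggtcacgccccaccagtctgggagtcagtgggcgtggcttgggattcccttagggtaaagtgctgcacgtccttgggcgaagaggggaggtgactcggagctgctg

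Each of 5 motifs was searched on both strands. The full palindrome bound by NRF1, a regulator of many respiratory chain genes, was in 6.94% of the 72 member promoters, against 0.971% of all 32851 promoters of the table. With its middle left base open to any letter, the palindrome was in 25.0% of member promoters and 4.60% of all, and these include the full matches. ACTTCCGG, bound by ETS factors such as GABPA, was in 6.94% of member promoters and 3.89% of all. The shorter ETS form CCGGAAG, which lies within the reverse complement of ACTTCCGG, was in 23.6% and 8.86%. AAGATGG, bound by YY1, was in 15.3% and 6.34%. The Cox6a1 promoter holds the full palindrome at position -162 from the start, a second match with the open base nearer the start and the shorter ETS form at -16, and the Uqcrh promoter holds ACTTCCGG at -11. All 5 motifs were thus in a larger share of member promoters than of all promoters. Tested genes with a motif had median ratios on either side of those without. The median was 0.05 for the 17 genes with the open palindrome and 0.08 for the 49 without, and 0.12 for the 5 with ACTTCCGG and 0.08 for the 61 without. For the full palindrome it was 0.05 with and 0.08 without, for CCGGAAG 0.06 with and 0.08 without, and for AAGATGG 0.08 both with and without.

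Complex I, which oxidizes NADH and passes its electrons to ubiquinone, had 48 tested probes of 36 genes, and none was called. Its median ratio was 0.06, with 0.01 on array 1 and 0.08 on array 2, and 31 of the 48 lay above 0. The highest was a cDNA probe of Ndufa3, an accessory subunit, with autoreactive levels of 8.98 and 9.32 against non-autoreactive levels of 8.48 and 8.64 on arrays 1 and 2. Its ratios were 0.50 and 0.69, mean 0.59 ± 0.13 (SE, n = 2 arrays, limma adjusted p = 0.0561), and the other Ndufa3 probe had a mean of 0.21. The lowest was Ndufv1, the flavoprotein subunit that binds NADH, with ratios of -0.30 and -0.46 (limma adjusted p = 0.150), autoreactive levels of 14.11 and 14.08 and non-autoreactive levels of 14.41 and 14.54. The brightest, Ndufa13, also known as GRIM-19, had a mean ratio of 0.18. The 3 tested probes of Ndufab1, the mitochondrial acyl carrier protein, had mean ratios from -0.05 to 0.33. Ndufaf1, an assembly factor rather than a subunit, had ratios of -0.04 and 0.24.

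Complex II, succinate dehydrogenase, links the chain to the tricarboxylic acid cycle and had 5 tested probes of its 4 genes. None was called, and all 5 lay below 0 on both arrays, with a median of -0.09; centring on the median of all gene probes or of the tested probes put the Sdha and Sdhd probes above 0. Sdha, the flavoprotein subunit, had mean ratios of -0.19 and -0.06 from its 2 probes. Sdhc and Sdhd, the membrane anchors, had mean ratios of -0.18 and -0.08, and Sdhb, the iron-sulfur subunit, -0.09. The standard error of each probe was 0.12 to 0.13.

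Complex III, the cytochrome bc1 complex, had 11 tested probes of 8 genes, of which 1 was called higher. That was Uqcrh, the hinge protein, at 115443478 to 115443537 on chromosome 4 in the file's positions, for which no build is named. Its autoreactive levels were 16.57 on array 1 and 16.79 on array 2, against non-autoreactive levels of 15.84 and 15.69. Both autoreactive levels lay above both non-autoreactive ones. The ratios were 0.73 and 1.10, mean 0.92 ± 0.14 (SE, n = 2 arrays, limma adjusted p = 0.0230). A second Uqcrh probe had ratios of 0.45 and 0.97, mean 0.71 (adjusted p = 0.0648). The called probe's ratio was 0.52 in the deposited ratios (limma adjusted p = 0.161) and 0.22 when centred within bins of brightness (adjusted p = 0.423). The lowest of the complex was Uqcr, a small accessory subunit, with ratios of -0.31 and -0.47 (limma adjusted p = 0.144). The core proteins Uqcrc1 and Uqcrc2, cytochrome c1 (Cyc1) and the Rieske protein Uqcrfs1 had mean ratios between -0.09 and 0.20, none called.

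Complex IV, cytochrome c oxidase, had the only gene called lower, and it is a tissue isoform. Cox6a2 is the heart and skeletal muscle form of subunit 6a, and its message has also been found in mouse plasmacytoid dendritic cells. Its autoreactive levels were 11.96 on array 1 and 11.45 on array 2, against non-autoreactive levels of 13.00 and 12.84. Both autoreactive levels lay below both non-autoreactive ones. The ratios were -1.04 and -1.40, mean -1.22 ± 0.14 (SE, n = 2 arrays, limma adjusted p = 0.00966), which is 2.33-fold lower. Among tested probes with a brightness over 12 and up to 14, where Cox6a2 lies, 2.22% were called lower. The probe lies at 124302204 to 124302263 on chromosome 7 in the file's positions. With separate channels the call was lost (adjusted p = 0.0734), and it was kept in 12 of 13 settings. The ratio was -0.46 with centring on the median of all gene probes (limma adjusted p = 0.0243).

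The widely expressed form of the same subunit, Cox6a1, was called higher. It had autoreactive levels of 17.48 and 17.23, against non-autoreactive levels of 16.61 and 16.33. The ratios were 0.87 and 0.90, mean 0.88 ± 0.12 (SE, n = 2 arrays, limma adjusted p = 0.0163), and the groups did not overlap. The ratio was 0.38 in the deposited ratios (limma adjusted p = 0.216), 0.37 with a loess span of 0.1 and 0.18 when centred within bins of brightness (adjusted p = 0.416). In its band of brightness, over 16, 52.7% of all tested probes were called higher. No other tissue isoform was called. Cox7a1, the muscle form of subunit 7a, had ratios of -0.43 and -0.32 (limma adjusted p = 0.147), and Cox6b2, the testis form of subunit 6b, had 0.08 and 0.09. Cox4i2, Cox8b and Cox8c, which are isoforms of lung, muscle and testis, were not well above background and were not tested.

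Plasmacytoid dendritic cells also carry B220, so their markers were set beside Cox6a2. In mouse bone marrow they largely carry CD43 too, and the sort was for CD43- cells. Whether any of them remained after the sort was not tested. Of 9 listed markers all 9 were well above background in both channels on both arrays. Of these, 1, Ly6d, was called lower, against 2.17% of all tested probes. Their median ratio was -0.73 on array 1 and -1.83 on array 2. The log2 of their summed levels was 16.33 to 16.39 in autoreactive cells and 17.02 to 17.24 in non-autoreactive cells. The bright probes of Irf8 and Ly6d make up most of this sum, so it does not measure the share of plasmacytoid dendritic cells. Siglech, a receptor that defines these cells in the mouse, had ratios of -0.87 and -2.77, and Ccr9, a chemokine receptor of theirs, had -0.87 and -2.69. All markers but Ly6d had a lower ratio on array 2 than on array 1, and so did Cox6a2. This was not particular to these markers. The medians were also lower on array 2 for T and NK cell markers (-0.05 and -1.13 on arrays 1 and 2) and myeloid markers (0.07 and -0.81). In sorted bulk cells, fewer cells of a type and less RNA per cell cannot be told apart, and the part of these cells in the Cox6a2 result was not tested.

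**Figure D2:**
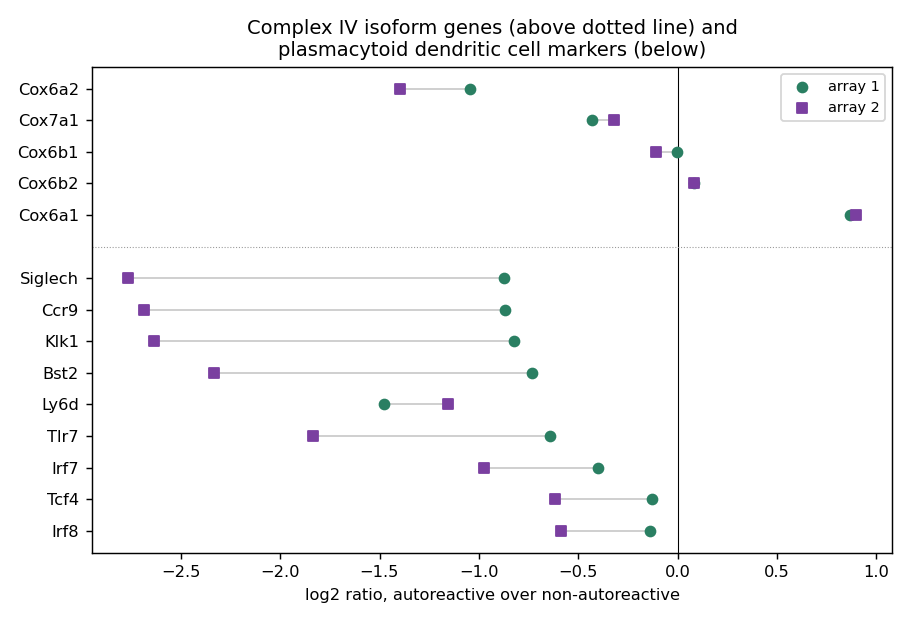
Log2 ratio of autoreactive over non-autoreactive cells on array 1 (circles) and array 2 (squares) for complex IV isoform genes (above the dotted line) and plasmacytoid dendritic cell markers (below it). Cox6a2 is at -1.04 and -1.40 and Cox6a1 at 0.87 and 0.90, and Siglech and Ccr9 reach -2.77 and -2.69 on array 2.

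Among the other probes of complex IV, Cox5a, which binds the enzyme's core, had an mRNA probe with ratios of 0.58 and 0.45, mean 0.52 (limma adjusted p = 0.0749), and a cDNA probe with a mean of -0.07. The cDNA probe was not called (limma adjusted p = 0.752). It was not well above background in Cy5 on either array, so its ratio gives no direction. Cox7a2l, a factor in the assembly of respiratory supercomplexes, had ratios of 0.43 and 0.74 (limma adjusted p = 0.0691). Cox4i1, the widely expressed form of subunit 4, had ratios of -0.39 and 0.28, so the arrays disagreed. Its autoreactive levels were 16.25 and 16.59 against non-autoreactive levels of 16.65 and 16.31. Cox8a, Ndufa4, Cox7b and Cox7c had mean ratios between 0.22 and 0.30, and none was called. The median of the complex was 0.13, with 0.08 on array 1 and 0.26 on array 2.

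Complex V, the ATP synthase, had 24 tested probes of 16 genes, of which 4 were called higher and none lower. Its median ratio was 0.13, and 21 of the 24 lay above 0, against 11514 of all 22623 tested probes. The 4 genes called higher encode parts of the catalytic head, stalk and proton-carrying ring of the complex. Their called probes all had a brightness over 16, where 52.7% of all tested probes were called higher. Atp5b, the catalytic beta subunit, had autoreactive levels of 16.58 and 16.77, against non-autoreactive levels of 15.79 and 15.76. The ratios were 0.78 and 1.01, mean 0.90 ± 0.13 (SE, n = 2 arrays, limma adjusted p = 0.0187). The groups did not overlap, but Atp5b's other 2 probes had mean ratios of 0.14 and 0.10. Atp5a1, the alpha subunit, had autoreactive levels of 16.73 and 16.60, against non-autoreactive levels of 15.96 and 15.89. The ratios were 0.77 and 0.70, mean 0.74 ± 0.12 (SE, n = 2 arrays, limma adjusted p = 0.0278), and its other probe had a mean of 0.02. The called probes had ratios of 0.54 (Atp5b) and 0.33 (Atp5a1) in the deposited ratios, and 0.20 and 0.04 when centred within bins of brightness, with limma adjusted p of 0.424 and 0.875.

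Atp5g3 is 1 of the 3 genes for subunit c, the ring through which protons pass, and all 3 encode the same mature protein. It had autoreactive levels of 16.34 and 16.47, against non-autoreactive levels of 15.65 and 15.82. The ratios were 0.69 and 0.64, mean 0.67 ± 0.12 (SE, n = 2 arrays, limma adjusted p = 0.0353). The other subunit c genes were near 0: Atp5g1 had a mean of 0.01, and Atp5g2 0.08 and 0.16 in its 2 probes. Atp5c1, the gamma subunit that turns with the ring, had autoreactive levels of 16.64 and 16.62, against non-autoreactive levels of 15.99 and 15.95. The ratios were 0.64 and 0.67, mean 0.65 ± 0.12 (SE, n = 2 arrays, limma adjusted p = 0.0376). Neither gene's groups overlapped on the 2 arrays, and centring the ratios within bins of brightness turned both below 0, as given in the closing section. Atp5e, the epsilon subunit, had a mean of 0.45 (limma adjusted p = 0.113), and the lowest, Atp5d, the delta subunit, had -0.18. Atp5s, a coupling factor related to the complex, had 0.22 and 0.11.

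All 6 higher calls were also among the brightest probes of the array, where brightness is the mean log2 intensity over both channels and both arrays. Of 260 tested probes with a brightness over 16, 137 (52.7%) were called higher, with a median ratio of 0.69. Of the 10 members there, 6 were called higher (60.0%), with a median of 0.66. Up to a brightness of 16, 2.57% of 22363 tested probes and 0 of 97 members were called higher. Over 15 and up to 16, these were 63 of 593 tested probes (10.6%) and 0 of 28 members. The limits of the brightness bins were chosen after seeing the data. Above 16, the share of members called higher was thus close to that of all probes as bright. Members were brighter than most probes: 38 of 107 (35.5%) were over 15, against 3.77% of all tested probes. The other 4 members over 16 were Cox4i1, Cox5a, Ndufa13 and Cox8a.

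Brightness and the scan moved with the higher calls. Very bright spots took their values from a second scan at lower gain, scaled up by the scanner software. Of the 28 tested members in which both channels on both arrays came from that scan, 6 were called higher, which is all of the 6; in all such probes, 161 of 609 (26.4%) were. Where neither channel on either array used that scan, 0 of 30 members and 2.20% of 19594 probes were called higher. In the deposited ratios, normalized by the scanner's software, the median of all 260 bright probes was 0.30 and that of the 10 members 0.24. Their part in the 6 higher calls was not tested. Cox6a2, with a brightness of 12.31, came from the normal scan.

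**Figure D3:**
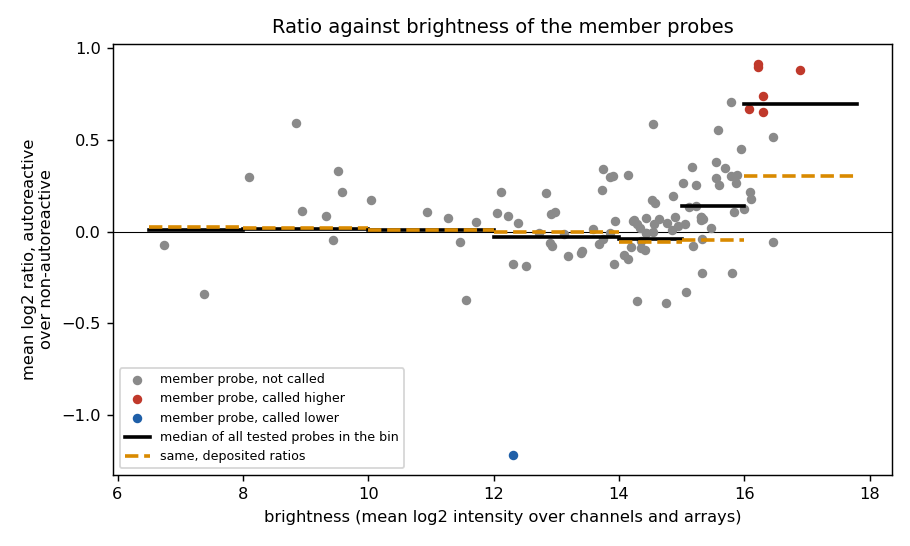
Mean log2 ratio of autoreactive over non-autoreactive cells against brightness (mean log2 intensity) for the 107 tested member probes. Black bars give the median of all tested probes in each bin of brightness and dashed orange bars the same in the deposited ratios, and over a brightness of 16 the medians are 0.69 and 0.30 while the 6 red points lie there too.

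For 22 genes, 2 or more probes were tested, 49 in all. For 13 of them all probes lay on the same side of 0 and for 9 on opposite sides. The gap between the highest and the lowest probe of a gene had a median of 0.16 and was under 0.2 for 13 genes. Of the 3 genes with several tested probes and a call (Atp5b, Atp5a1 and Uqcrh), none had all of its probes called. The widest gap, 0.80, was that of Atp5b, whose brightest probe was the called one. Cox4nb had -0.34 and 0.22, and Uqcrq, a small ubiquinone-binding subunit, had -0.05 and 0.35. For 13 of the 22 genes the brightest probe had the highest ratio. Probe sequences were not used here, and many of these genes have processed pseudogenes and near-identical copies that a probe may not tell apart.

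**Figure D4:**
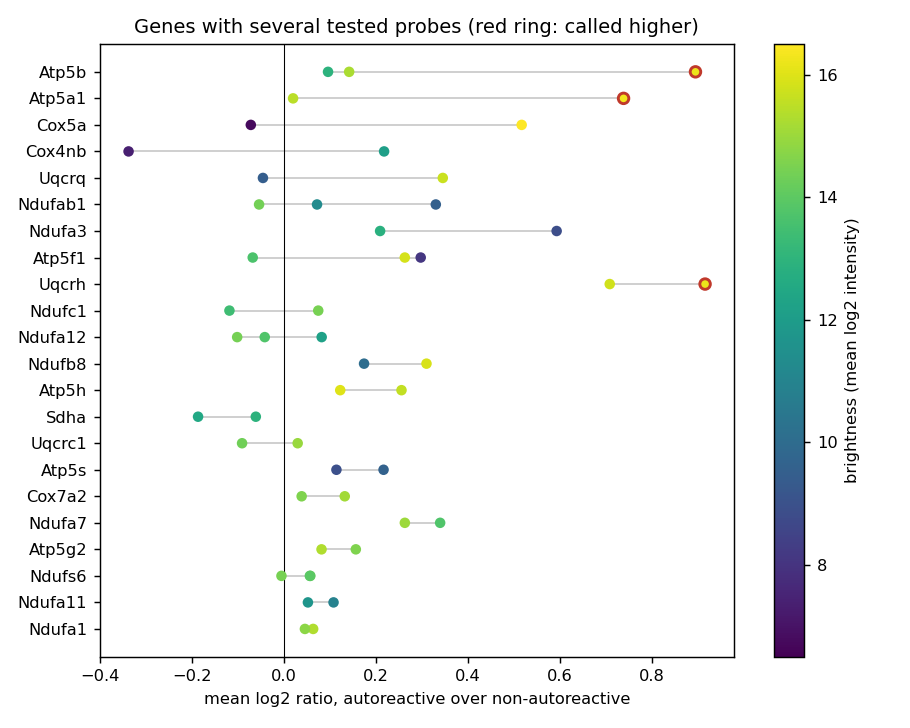
Mean log2 ratio of autoreactive over non-autoreactive cells for every probe of the 22 genes with 2 or more tested probes, coloured by brightness, with the called probes ringed in red. The probes of Atp5b span 0.10 to 0.90 and those of Atp5a1 0.02 to 0.74, while Ndufa1 and Ndufa11 probes lie close together.

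Among genes that serve these complexes, 2 were called, both higher. The lists below had 20, 14, 9 and 20 tested genes, and over the whole array 3.15% of tested probes were called higher. Of 22 listed assembly genes 20 were found and tested. None was called by its brightest tested probe, and the median was 0.06. Other probes of the genes in these lists were not counted. Of 14 genes that regulate mitochondrial biogenesis none was called, and the coactivators Ppargc1a and Ppargc1b had means of 0.49 and -0.48. Of 9 genes for carriers and electron transfer, 1 was called higher: Slc25a5, the ADP/ATP exchanger. It had a mean of 0.91 (limma adjusted p = 0.0185) and a brightness of 16.27. Over a brightness of 16, 52.7% of all tested probes were called higher. Ucp2, an uncoupling protein, had -0.62 (limma adjusted p = 0.0530), and Slc25a4, another ADP/ATP exchanger, had 0.52 (adjusted p = 0.0757). The medians of the biogenesis and carrier lists were 0.02 and 0.01. Of 20 listed genes of the tricarboxylic acid cycle and of the entry of pyruvate into it, 1 was called higher. That was Pdk1, a kinase that restrains pyruvate dehydrogenase, with ratios of 1.01 and 0.87 (limma adjusted p = 0.0145) and a brightness of 8.89. Pdk1 is thus not among the bright probes. Pdha1, a subunit of that dehydrogenase, had 0.50 and Mdh2, malate dehydrogenase, 0.41, neither called, and the median of the list was 0.11. Subunits encoded in the mitochondrial genome were not found under the names searched and are not analysed here.

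The H-2 region and the Rag1 gene differ between the groups by design, so neighbours were looked up. Ndufa7, an accessory subunit of complex I, was within 1 Mb of H2-Ea on chromosome 17 in the file's positions, with mean ratios of 0.34 and 0.26 in its 2 probes, neither called. Cox7a2l lay 49.4 Mb from H2-Ea. On chromosome 2, Ndufs3 and Ndufaf1 lay -10.7 and 17.9 Mb from Rag1 and were not called, and Atp5g3 and Atp5c1, called higher, lay -27.7 and -91.5 Mb from it.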

How the data were processed

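The deposited scanner files come from Agilent Feature Extraction 9.5.1.1 (per the headers of the files) and hold, for each spot and channel, a mean intensity and the median intensity of its local background, neither normalized. Per the file headers, the same software also made a log10 ratio, Cy5 over Cy3, after subtracting background and normalizing the dyes. The series table deposited by the authors repeats these log10 values to within 5e-10. Deposited flags of 0 or 1 mark outlier, dim, saturated and lower-gain spots.

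Here limma 3.58.1 (R 4.3.3) was used for background correction by normexp with an offset of 50, then for loess normalization within arrays with a span of 0.3. For the levels, the mean log2 intensities were also quantile normalized between the arrays, which left the ratios unchanged. Outlier spots were left out and spots of a probe averaged. A probe entered the test when 1 or both channels were well above background on each array, which held for 22623 of 41174. Log2 ratios were tested against 0 with lmFit and eBayes, two-sided, with 1 residual and 5.08 prior degrees of freedom. The number of arrays, 2, limits the precision. Amplification started from 0.5 ug of RNA, per the labels. Only the limma step was tried on simulated data. The simulated ratios held no effect of brightness, dye or scan, so the background correction and loess steps were not tried.

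Members, lists, motifs and tests were chosen with earlier results of these data known. Named were every called member, the highest, lowest and brightest of each complex, the 6 genes with the widest gap between probes, subunit c, tissue isoform and assembly genes, and up to 3 genes of each related list with the largest absolute ratio. Other genes were named after their values were seen. Alternatives changed the background correction, source of ratios, centring, filter, probe choice, variance model and channels, and 3 were chosen after seeing the data.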

Additional observations from a re-analysis of the deposited data

How the results depend on the processing

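The count of higher calls depended on the processing. Of the 107 tested member probes, 6 were called higher and 1 lower. The higher calls were 4 with normexp offset 16, 4 with the mean over probes of a gene, 0 with the deposited ratios, 103 with centring on the median of all probes, 69 with centring on the median of tested probes and 0 with separate channels. Of all 22623 tested probes, 14319 were called higher with centring on all probes and 3488 with centring on tested probes. Of 3 alternatives chosen after seeing the data, loess with span 0.1, centring within brightness bins and leaving out spots from the lower-gain scan each gave 0, the last with 30 probes left. The lower call was 3 with centring on tested probes and 0 with separate channels, and 1 otherwise. The median of the members, 0.07, was 0.0203 with the deposited ratios, 1.08 with centring on all probes, where all tested probes had a median of 0.536, and 0.544 with centring on tested probes, and 0.0479 to 0.118 when either array was left out. Without background correction, with a filter on both channels, without the filter and with a trended variance, the counts were unchanged.

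Each of the 6 higher calls was kept in 7 or 8 of 12 settings. Uqcrh ranged from 0.218 to 2.27 over them, Cox6a1 from 0.184 to 2.34, Atp5b from 0.197 to 2.25, Atp5a1 from 0.0402 to 2.1, Atp5c1 from -0.0444 to 2.02 and Atp5g3 from -0.0295 to 1.99, and Cox6a2 from -1.23 to -0.456 over 13. The named probes below changed sign, and the cause was not tested. Those of Atp5a1 and Atp5b, here and on leaving out an array, are probes that were not called. With offset 16, Atp5a1 was -0.00595. With the deposited ratios Ndufa13 was -0.18, Atp5a1 -0.301, Atp5b -0.0409 and Atp5g2 -0.116. With loess span 0.1 they were -0.159, -0.175, -0.00112 and -0.0796. Centred within brightness bins, Ndufa13 was -0.521, Cox5a -0.181, Atp5a1 -0.112, Atp5c1 -0.0444, Atp5g2 -0.0502 and Atp5g3 -0.0295. With centring on all probes, Ndufab1 was 0.999, Ndufv1 0.664, Sdha 0.774 and 0.602, Sdhd 1.1, Uqcr 0.724, Uqcrq 0.424, Cox7a1 0.312 and Atp5d 0.809. With centring on tested probes, Ndufab1 was 0.463, Ndufv1 0.129, Sdha 0.239 and 0.0666, Sdhd 0.564, Uqcr 0.189, Atp5d 0.274 and Atp5s -0.0152. With the mean over probes, Ndufab1 was 0.116, Uqcrq 0.150, Cox5a 0.223 and Cox4nb -0.0601. Without array 1, Atp5g1 was -0.0405. Without array 2, 2 probes of Ndufab1 were 0.0364 and -0.00549, Ndufaf1 was -0.0351, Uqcrq 0.0441, Atp5a1 -0.0278 and Atp5b -0.0538. No paired analysis was possible because each ratio already pairs the channels of an array and the labels give 1 group of numbered samples. With 2 arrays, the signal over background of dim probes limits what can be seen.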
